A study of Drosophila melanogaster with 6 samples.

Results

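The regions described here are the ChIP-seq peaks of 2 RNA-binding proteins, hrp36 and hrp48, on the mapped heterochromatic sequences and on U of the Drosophila melanogaster genome build dm3. A peak was taken when its sequence name ended in Het or was exactly U. This gave 310 of the 1958 peaks in both lists, of which 149 were from the hrp36 list and 161 from the hrp48 list. They lay on 2LHet, 2RHet, 3LHet, 3RHet, YHet and U. The larger Uextra sequence was left out of the set and served, with the chromosome arms, for comparison. The study took chromatin from S2 cells, a Drosophila cell line, fixed in 1.8% formaldehyde for 10 minutes and sonicated. The labels carry no other genotype or treatment, and under cell type they also call the material a late-stage primary culture of 20 to 24 hours, which does not describe an established line. The 6 samples were 2 immunoprecipitates with an hrp36 antibody, 2 with an hrp48 antibody, and 2 inputs of 10% without antibody.

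Heterochromatin is the compacted, repeat-rich part of the genome that surrounds the centromeres and makes up most of the fly Y chromosome. It is known for satellite DNA, transposable elements and few genes, and the linker histone H1, named in the series title, helps keep its repeats silent. The Het sequences of dm3 are scaffolds that were assigned to the heterochromatin of a chromosome but not joined to its arm. U strings together scaffolds with no assigned chromosome, so a distance along it can cross from one scaffold to another. hrp36 and hrp48 are heterogeneous nuclear ribonucleoproteins, which coat nascent transcripts. hrp36 is a relative of the mammalian hnRNP A/B proteins, and hrp48 is known for roles in splicing and in the localisation and translation of oskar mRNA.

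A single list per antibody was at hand, with no score, read count or value per replicate, so no value below has a replicate error. Depth is unknown. Peaks are the units of every test, and the tests compare parts of these lists, not conditions. Most peaks are in both lists, so a test for hrp36 and the same test for hrp48 are not independent. Intervals on shares are exact 95% Clopper-Pearson intervals that cover the number of peaks only. The treatment of reads with several matching positions is not stated in the sources used here, and its part in the results on repeated sequence was not tested.

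Both proteins were listed at nearly the same sites of mapped heterochromatin and U. Here a shared peak is one that has 1 bp or more in common with some peak of the other antibody. In the set, 140 of 149 hrp36 peaks were shared (94.0%, interval 88.8 to 97.2%), against 82.2% over the whole hrp36 list. Of the hrp48 peaks, 140 of 161 were shared (87.0%, interval 80.8 to 91.7%), against 89.3% over the whole hrp48 list. The hrp48 share was therefore near that of its whole list, and the hrp36 share was above that of its own. Each shared peak met exactly 1 peak of the other list, with 0 peaks split in 2. The lists together thus marked 170 sites, 140 of them shared, 9 hrp36-only and 21 hrp48-only.

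On the arms, a smaller part of the hrp36 list was shared. There it was 198 of 346 peaks (57.2%), which is 36.7 percentage points below the set (Fisher's exact test, adjusted p = 1.37e-17). For hrp48 the arms had 198 of 218 shared (90.8%), and the set was lower by a difference of -3.87 percentage points that did not pass (Fisher's exact test, adjusted p = 0.343). Uextra had 95.2% of hrp36 and 89.4% of hrp48 peaks shared. The set differed from it by -1.28 points for hrp36 (Fisher's exact test, adjusted p = 0.567) and by -2.49 points for hrp48 (Fisher's exact test, adjusted p = 0.501), neither past the threshold of 0.05. With the Het sequences alone, an alternative added after the lists had been seen, the hrp48 share passed as lower, by -11.6 points against the arms (Fisher's exact test, adjusted p = 0.0191) and by -10.2 points against Uextra (adjusted p = 0.0192).

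**Figure D1:**
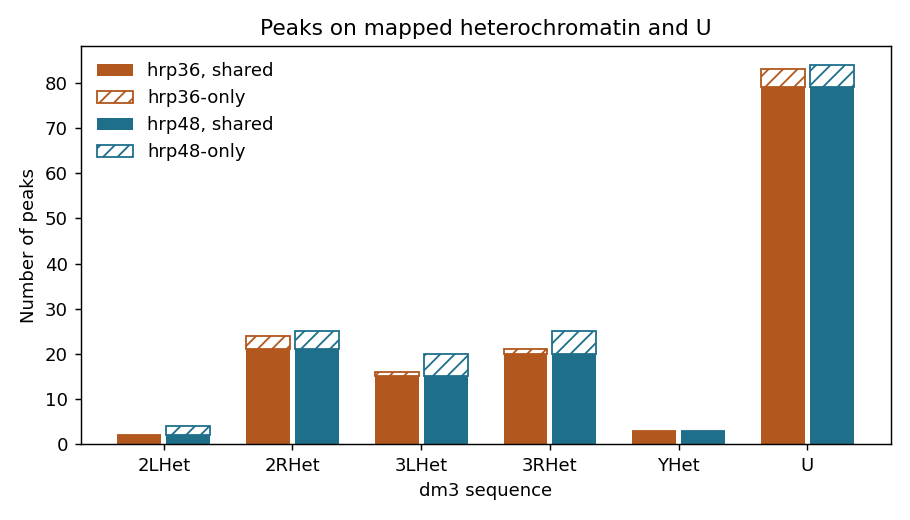
Number of peaks (vertical axis) on each dm3 sequence (horizontal axis), by list, with shared peaks filled and list-only peaks hatched. U holds 83 hrp36 and 84 hrp48 peaks, nearly all shared, and hrp48-only peaks number 5 each on 3LHet, 3RHet and U.

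Within the set, a smaller part of the hrp48 peaks was shared on the Het sequences than on U. On the Het sequences 61 of 77 hrp48 peaks were shared (79.2%, interval 68.5 to 87.6%), and on U 79 of 84 (94.0%, interval 86.7 to 98.0%). The difference of -14.8 percentage points passed (Fisher's exact test, adjusted p = 0.0135). It no longer passed with peaks of a list merged within 10 kb, at -10.2 points (Fisher's exact test, adjusted p = 0.12), or with peaks of at least 2 kb only, at -6.43 points (adjusted p = 0.567). For hrp36 the shares were 92.4% on the Het sequences (61 of 66) and 95.2% on U (79 of 83), a difference that did not pass (Fisher's exact test, adjusted p = 0.567). The Het sequences held 44.3% of the hrp36 peaks of the set and 47.8% of its hrp48 peaks, which did not differ detectably (Fisher's exact test, adjusted p = 0.569). Most peaks are in both lists, so that last comparison is not one of independent counts.

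By coverage, the set amounted to 505 kb for hrp36 and 540.7 kb for hrp48, of which 471.1 kb was covered in both lists. That common part was 93.3% of what hrp36 covered and 87.1% of what hrp48 covered. The Het sequences contributed 307.7 kb of hrp36 and 342.8 kb of hrp48 coverage, or 60.9% and 63.4% of the set. U contributed 197.3 and 197.8 kb. U thus held more of the peaks of each list, and the Het sequences held more of the bases.

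Peaks of the Het sequences were wide and those of U narrow. In the hrp36 list the median width was 4684 bp on the Het sequences (quartiles 2198 and 6503 bp) and 1723 bp on U (quartiles 1300 and 2700 bp). In the hrp48 list it was 4180 bp on the Het sequences (quartiles 2121 and 6385 bp) and 1684 bp on U (quartiles 1276 and 2708 bp). Peaks of at least 4 kb made up 21.7% of the whole hrp36 list and 23.1% of the whole hrp48 list. On the Het sequences they were 38 of 66 for hrp36 (57.6%, interval 44.8 to 69.7%) and 40 of 77 for hrp48 (51.9%, interval 40.3 to 63.5%). On U they were 12 of 83 (14.5%, interval 7.70 to 23.9%) and 12 of 84 (14.3%, interval 7.61 to 23.6%). The Het share was higher by 43.1 percentage points for hrp36 (Fisher's exact test, adjusted p = 7.77e-08) and by 37.7 points for hrp48 (Fisher's exact test, adjusted p = 6.16e-07). Leaving out any 1 of the Het sequences kept both differences past the threshold. Most of these peaks are in both lists, so the hrp48 result is not separate from that of hrp36.

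Uextra had almost no wide peaks. Only 1 of 525 hrp36 peaks there (0.190%) and 2 of 559 hrp48 peaks (0.358%) reached 4 kb, against 33.6% and 32.3% in the set (Fisher's exact test, adjusted p = 5.85e-34 and 6.43e-34). The arms had more wide peaks than the set, at 49.1% for hrp36 and 74.8% for hrp48, a difference of -15.6 points for hrp36 (Fisher's exact test, adjusted p = 0.00275) and of -42.5 points for hrp48 (adjusted p = 3.7e-16). Over all hrp36 peaks this rested on U. With the Het sequences alone the hrp36 difference from the arms was 8.44 points in the other direction and did not pass (Fisher's exact test, adjusted p = 0.343). For hrp48 it was -22.8 points and still passed (Fisher's exact test, adjusted p = 0.000637). However, 148 of the 346 hrp36 peaks of the arms were hrp36-only. With shared peaks only, the set differed from the arms by -41.3 points for hrp36 (Fisher's exact test, adjusted p = 6.9e-14). For hrp48 that difference was -42.7 points (Fisher's exact test, adjusted p = 1.27e-14). The Het sequences alone were not compared with the arms in that way.

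**Figure D2:**
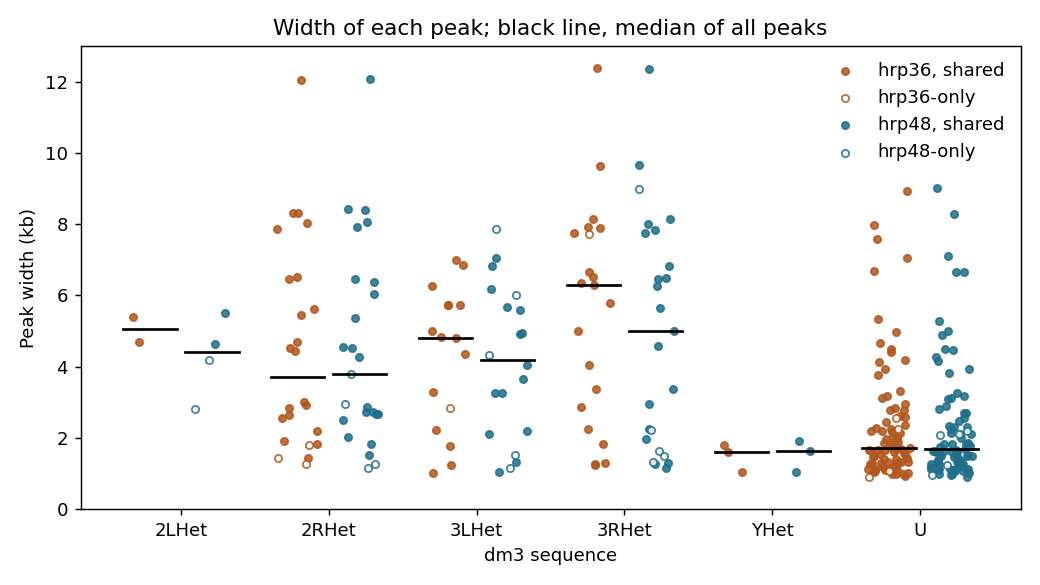
Width in kb of every peak (vertical axis) on each dm3 sequence (horizontal axis), filled when shared and open when list-only, with the median as a black line. Medians are highest on 3RHet for hrp36 (6288 bp), and the 3 YHet peaks of each list are all under 2 kb.

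The heterochromatin of the right arm of chromosome 3, 3RHet, held 26 sites, 20 of them shared, 1 hrp36-only and 5 hrp48-only. Its median width was 6288 bp for hrp36 (21 peaks) and 5007 bp for hrp48 (25 peaks), and 14 peaks of each list reached 4 kb. Its widest shared site, also the widest site of the set, lay at 58330 to 70702 for hrp36 (12373 bp) and was 12350 bp wide for hrp48, with borders 9 and 14 bp apart. The next shared site was at 167941 to 177558 for hrp36, at 9618 bp, and was 9661 bp wide in the hrp48 list. The third shared site was at 845248 to 853386, where the widths were 8139 bp for hrp36 and 8142 bp for hrp48. These 3 sites were thus listed with nearly the same extent by both antibodies.

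3RHet also held the widest list-only peaks of either protein in the set. An hrp48-only peak of 8977 bp lay at 192738 to 201714, 15179 bp from the nearest hrp36 peak. An hrp36-only peak of 7735 bp lay at 2047614 to 2055348, with 57649 bp to the nearest hrp48 peak. Both thus stood apart from every site of the other protein. The remaining 4 hrp48-only peaks of 3RHet were 1326 to 2223 bp wide. The longest run of hrp48 peaks there with gaps of at most 10 kb had 3 members, from 43909 to 70688, and its first peak, at 43909 to 45541, was hrp48-only.

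On the heterochromatin of the right arm of chromosome 2, 2RHet, the lists marked 28 sites, 21 shared, 3 hrp36-only and 4 hrp48-only. This was the only sequence of the set other than U with more than 1 hrp36-only peak. Median width was 3718 bp for hrp36 (24 peaks) and 3782 bp for hrp48 (25 peaks), and 12 peaks of each list reached 4 kb. The widest shared site ran from 1143698 to 1155750 for hrp36 (12053 bp) and was 12061 bp wide for hrp48. Sites of 8323 bp at 710474 to 718796 and of 8317 bp at 853239 to 861555 in the hrp36 list were 8426 and 8402 bp wide in the hrp48 list. No list-only peak of 2RHet reached 4 kb.

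Several list-only peaks of 2RHet sat beside a peak of the other list. The hrp36-only peak at 369514 to 370943 began 78 bp after a shared hrp36 peak of 8035 bp and 75 bp from the hrp48 peak of that site. An hrp48-only peak at 2600168 to 2601435 and an hrp36-only peak at 2601747 to 2603029 were 311 bp apart without overlap. Under a rule that counts peaks within 1 kb as shared, these 3 would be shared. By contrast the hrp36-only peak at 197537 to 199327 was 110972 bp from the nearest hrp48 peak, and the hrp48-only peak at 1752135 to 1753297 was 280214 bp from the nearest hrp36 peak. A stretch of 825.1 kb, from 1471921 to 2297041, held no hrp36 peak, and in the hrp48 list only that last peak interrupted it.

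On 3LHet, from the left arm of chromosome 3, there were 21 sites, 15 shared, 1 hrp36-only and 5 hrp48-only. Median width was 4809 bp for hrp36 (16 peaks) and 4181 bp for hrp48 (20 peaks), with 10 and 11 peaks of at least 4 kb. Of the 5 hrp48-only peaks, 3 were wide, with 7850 bp at 66991 to 74840, 6018 bp at 566610 to 572627 and 4317 bp at 743446 to 747762. Of these 3, the one closest to an hrp36 peak was 71381 bp from it. The hrp36-only peak, at 361163 to 364011, was 2849 bp wide and 58494 bp from the nearest hrp48 peak.

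3LHet held the longest run of neighbouring peaks in the set. From 1069969 to 1107841 the hrp48 list had 6 peaks with gaps of at most 10 kb, covering 21.3 of 37.9 kb, and the hrp36 list had 5, covering 20.9 of 32.7 kb. All 5 hrp36 peaks of the run were shared, and the additional hrp48 peak, at 1106315 to 1107841, closed it. The widest peak of the run was listed at 1089408 to 1095671 in the hrp36 list, with 6264 bp, and had 6193 bp in the hrp48 list. The 2 wider shared sites of 3LHet were outside the run, at 1121323 to 1128329 (7007 bp for hrp36, 7050 bp for hrp48) and at 1665392 to 1672257 (6866 and 6836 bp).

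2LHet and YHet carried few peaks, over short extents. Their last peaks ended at 0.3 and 0.28 Mb, against 2.45 to 9.95 Mb on the other sequences of the set. Per Mb up to the last peak end, 2LHet had 6.61 hrp36 and 13.2 hrp48 peaks, and YHet 10.7 of each. The other sequences had 6.3 to 8.56 hrp36 and 7.64 to 10.2 hrp48 peaks per Mb. Sequence lengths were not used. On 2LHet the hrp36 list had 2 peaks, at 30460 to 35867 (5408 bp) and at 123302 to 127987 (4686 bp). Both were matched in the hrp48 list, with widths of 5507 and 4646 bp. The hrp48 list added a peak of 2800 bp at 37858 to 40657, 1990 bp beyond the first hrp36 peak, and one of 4180 bp at 298617 to 302796, which was 170629 bp from the nearest hrp36 peak. On YHet both lists had the same 3 sites. Their hrp36 widths were 1792 bp at 132982 to 134773, 1603 bp at 154490 to 156092 and 1043 bp at 280600 to 281642. The hrp48 widths were 1903, 1622 and 1052 bp, slightly wider at each site. None of the YHet peaks reached 2 kb, and with 3 peaks the share of wide peaks could be as high as 70.8% by the exact interval.

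U held 88 sites, 79 shared, 4 hrp36-only and 5 hrp48-only. Of its peaks, 49 of 83 in the hrp36 list and 50 of 84 in the hrp48 list were under 2 kb. The widest shared site of U was at 1539755 to 1548685 for hrp36 (8931 bp) and 9027 bp wide for hrp48. The second was at 977008 to 984969, with 7962 bp for hrp36 and 8285 bp for hrp48. The third was at 239444 to 247037 with 7594 bp for hrp36, and the hrp48 peak there was shorter, at 6669 bp. The list-only peaks of U measured 904 to 2547 bp for hrp36 and 961 to 2189 bp for hrp48. These ranges include the medians over all peaks of U, 1723 bp for hrp36 and 1684 bp for hrp48. The longest runs of hrp48 peaks with gaps of at most 10 kb had 3 members each, from 9006458 to 9018667 and from 9667085 to 9679155, and all 6 peaks were shared.

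Widths on U were not the same along its length. Up to 2.5 Mb, 8 of 11 hrp36 peaks and 8 of 12 hrp48 peaks reached 4 kb, with medians of 5328 and 5097 bp. From 2.5 to 5 Mb the medians were 1865 bp (14 peaks) and 1829 bp (14 peaks). From 5 to 7.5 Mb they were 1862 bp (23 peaks) and 1830 bp (20 peaks). From 7.5 to 10 Mb they were 1463 bp (35 peaks) and 1508 bp (38 peaks), and 0 peaks of either list reached 4 kb. The wide peaks of U thus lay mostly in its first part, where peaks were fewest, although that part rests on 11 and 12 peaks. As a description, Spearman's rho between start and width was -0.52 over the 83 hrp36 peaks and -0.51 over the 84 hrp48 peaks of U. Points of both lists share their sites, and scaffold lengths within U were not used here. On 3RHet, rho was -0.21 over 21 hrp36 and -0.30 over 25 hrp48 peaks. On 2RHet it was -0.01 over 24 hrp36 and -0.21 over 25 hrp48 peaks, and on 3LHet 0.02 over 16 and -0.11 over 20.

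**Figure D3:**
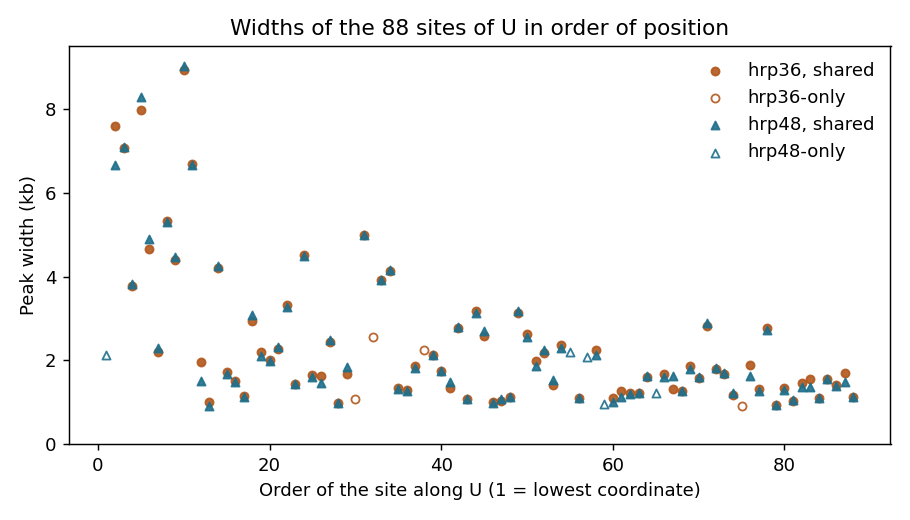
Width in kb (vertical axis) of each peak of U against the order of its site among the 88 sites of U (horizontal axis), circles for hrp36 and triangles for hrp48, open when list-only. Peaks of 4 kb or more stand mostly at the left, and none lies beyond 7.5 Mb, where the median was 1463 bp for hrp36 and 1508 bp for hrp48.

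The extents of shared sites were listed almost alike in both lists. Over the 140 pairs of the set, the median difference between the starts or ends of a pair was 30.5 bp (quartiles 8 and 69.2 bp). Of 280 borders, 237 were no more than 100 bp apart (84.6%), against 88.9% over all pairs of the series. Both borders were within 100 bp in 103 pairs (73.6%), against 80.3% over all pairs. The hrp48 peak was the wider one in 69 pairs (49.3%, against 50.3% over all pairs), the hrp36 peak in 70, and 1 pair had equal widths. The narrower peak of a pair measured a median of 98.3% of the wider one. Neither list therefore held the wider peak at a clear majority of the shared sites.

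**Figure D4:**
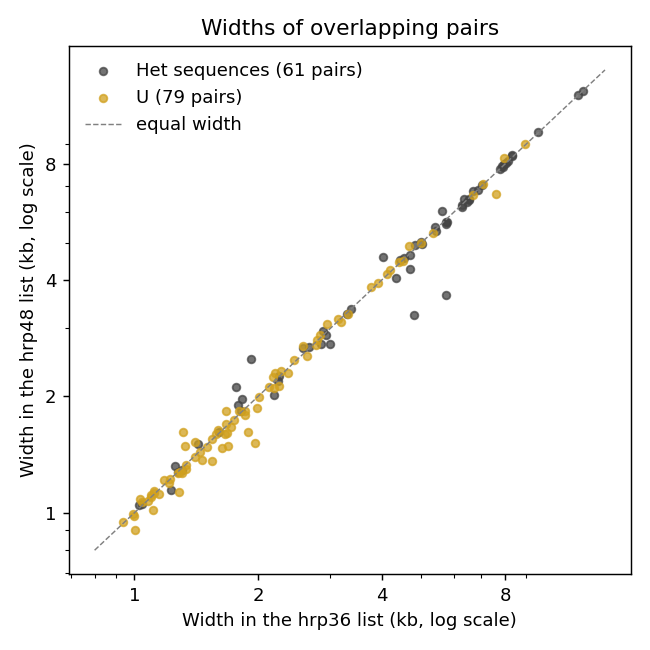
Width of each overlapping pair in the hrp36 list (horizontal axis) and the hrp48 list (vertical axis), both in kb on log scales, with the 61 pairs of the Het sequences and the 79 pairs of U. Most points lie on the dashed line of equal width, and the points farthest below it are 2 sites of 3LHet.

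In bp, borders were closer on U than on the Het sequences, where peaks were wider. The median difference was 16 bp on U (158 borders, quartiles 5 and 57.8 bp) and 40 bp on the Het sequences (122 borders, quartiles 18.2 and 78.8 bp). On U, 10 borders were identical to the base and 61 were within 10 bp, whereas on the Het sequences 0 were identical and 21 were within 10 bp. By sequence, the medians were 10.5 bp on YHet, 36.5 bp on 3RHet, 37.5 bp on 3LHet, 51 bp on 2LHet and 52.5 bp on 2RHet. For comparison, the median was 36 bp on the arms and 16.5 bp on Uextra. In bp, the Het value was thus nearer to that of the arms, and the U value nearer to that of Uextra. Relative to width, U was not the closer one. The narrower peak of a pair measured a median of 98.8% of the wider one on the Het sequences and 98.2% on U. That median was 98.8% on the arms and 97.8% on Uextra. These differences were not tested, since both borders of a site and neighbouring sites are not independent.

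**Figure D5:**
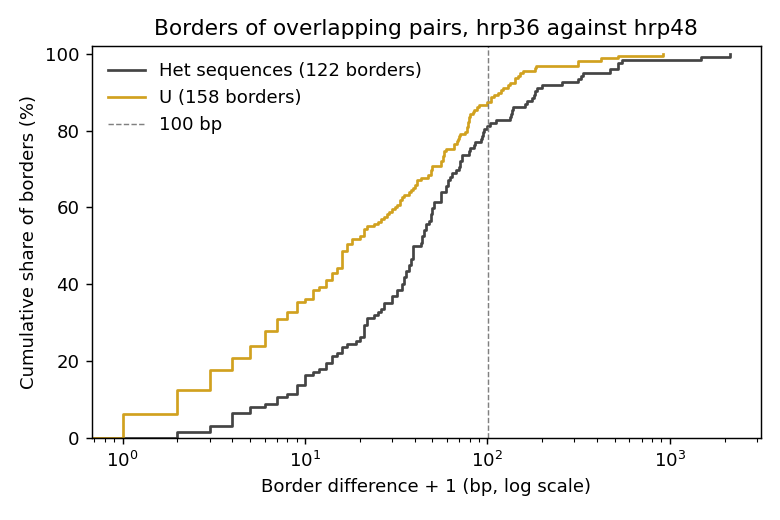
Cumulative share of borders in percent (vertical axis) against the difference between the hrp36 and hrp48 border, plus 1 bp on a log scale (horizontal axis), for the Het sequences and U. The curve of U lies to the left, with 87.3% of borders within 100 bp against 81.1% on the Het sequences.

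At 5 shared sites the widths differed by more than 500 bp, and they were singled out after their values were seen. On 3LHet the site at 1657382 to 1663121 was 5740 bp wide for hrp36 and 3661 bp for hrp48, and nearly all of that lay at its end, where the borders differed by 2139 bp. Also on 3LHet, the site at 1097806 to 1102603 had 4798 bp for hrp36 and 3258 bp for hrp48. On U, the hrp36 peak at 239444 to 247037 was the longer one, with a width difference of -925 bp (hrp48 minus hrp36). The hrp48 peak was longer at 2RHet 84120 to 86045, by 574 bp, and at 3RHet 1953571 to 1957611, by 541 bp. At all 5 sites the starts differed by at most 60 bp, so that the disagreement was at the high-coordinate end.

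The 30 list-only peaks of the set divided unequally between the lists. There were 21 hrp48-only and 9 hrp36-only peaks, so hrp48 held 70% of them. On the arms hrp48 held 20 of 168 (11.9%), a difference of 58.1 percentage points (Fisher's exact test, adjusted p = 3.41e-10). On Uextra it held 59 of 84 (70.2%), close to the value of the set, so this division is not particular to the set. Over the whole series 17.8% of hrp36 peaks and 10.7% of hrp48 peaks were list-only. On the Het sequences the counts were 16 hrp48-only and 5 hrp36-only, and on U they were 5 and 4. The excess of hrp36-only peaks on the arms was known when this comparison was set up. The test also reuses the counts behind the shared share of hrp36, so it is not separate evidence.

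Over the whole set, list-only peaks had somewhat lower median widths than shared peaks. The 9 hrp36-only peaks ranged from 904 to 7735 bp with a median of 1791 bp, against 2321 bp over the 140 shared hrp36 peaks. The 21 hrp48-only peaks ranged from 961 to 8977 bp with a median of 2124 bp, against 2410 bp over the 140 shared hrp48 peaks. These medians mix the Het sequences and U, and 16 of the 21 hrp48-only peaks were on the Het sequences. Of those 16, 5 reached 4 kb, against 40 of all 77 hrp48 peaks there (51.9%), which was not tested. No hrp48-only peak of U reached 4 kb, and among hrp36-only peaks of the set 1 did. The median over all hrp48 peaks of U was 1684 bp. The hrp48-only peaks there of 2070, 2124 and 2189 bp were wider than that, and those of 961 and 1228 bp narrower. The lower pooled median therefore does not describe U. Within 1 kb of a peak of the other list lay 2 of the 9 hrp36-only and 2 of the 21 hrp48-only peaks. Within 10 kb lay 3 of 9 and 8 of 21. Most therefore lay farther than 10 kb from any site of the other protein.

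Peaks of the set often had a neighbour of the same list nearby. Within 10 kb of another hrp36 peak lay 46 of 149 hrp36 peaks (30.9%), and within 10 kb of another hrp48 peak 57 of 161 hrp48 peaks (35.4%). For hrp36 this was 37.9% on the Het sequences and 25.3% on U, and for hrp48 45.5% and 26.2%. The arms had 19.1% and 12.8%, with median gaps of 200.4 and 314.1 kb between neighbours, against 67.0 and 62.9 kb in the set. Uextra had 30.1% of hrp36 and 32.4% of hrp48 peaks with such a neighbour, near the values of the set, and median gaps of 38.2 and 35.3 kb. The part that peak density plays in these shares was not tested, and neither were the differences between the shares. The closest neighbours were 78 bp apart in the hrp36 list, on 2RHet, and 149 bp apart in the hrp48 list, on U.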

How the data were processed

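Chromatin from S2 cells was immunoprecipitated with antibodies against hrp36 (2 samples) and hrp48 (2 samples), beside 2 inputs. The authors deposited 1 peak list per antibody, with 4 columns (sequence name, start, end, running peak name) and no other value; coordinates in bp were read as deposited, with starts taken to count from 0 and printed from 1. The running names had no gaps in either list. Bowtie2 2.2.2, MACS 1.4.2 and dm3 were used per the submitters' processing notes. Settings, control and pooling of replicates are not given in the sources used here.

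Overlaps, widths and border differences were computed from the lists with Python 3.11.15, SciPy 1.17.1 and NumPy 2.4.6, and the functions were tested on simulated lists. For differences between shares, 14 Fisher's exact tests (two-sided) were run and adjusted together by the Benjamini-Hochberg method. The members, comparisons and lists were chosen with earlier results of these data known. Named sites are all peaks of 2LHet and YHet, the 3 widest shared sites of the other sequences, list-only peaks of at least 4 kb, and the longest hrp48 runs; other sites were named after their values were seen. Alternatives covered the overlap rule, merging, width thresholds and single sequences left out. No genome of dm3 was at hand, so no base sequence or gene annotation is given, and coordinates were not converted between builds.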

Additional observations from a re-analysis of the deposited data

Results flagged for a closer look

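The division of list-only peaks between the proteins differed between the set and the arms. Of list-only peaks, hrp48 held 21 of 30 on mapped heterochromatin and U (70%) and 20 of 168 on the arms (11.9%), a difference of 58.1 percentage points (Fisher's exact test, adjusted p = 3.41e-10). On Uextra hrp48 held 59 of 84 (70.2%), close to the set, so this division is not particular to mapped heterochromatin and U. The arms held 148 hrp36-only peaks. That excess was known when the comparison was set up, and the test reuses the counts behind the shared share of hrp36, so its p is no separate evidence. With peaks of at least 2 kb only, the difference was 47.6 points (Fisher's exact test, adjusted p = 0.00179), and over all other alternatives it ranged from 52.8 to 64.3 points. The whole hrp36 list held 1020 peaks and the whole hrp48 list 938, and whether the difference depends on the threshold behind each list was not tested.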

How the results depend on the processing

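No paired analysis was possible because each antibody has a single list with no value per replicate, and for the same reason no replicate could be left out. In all, 173 alternatives to 19 results were computed, 85 planned and 88 added after seeing the data (leaving out each sequence in turn). Of the 140 alternatives to tests, 131 left direction and call as reported. The share of hrp36 peaks of at least 4 kb turned from -15.6 to 8.44 points against the arms without U. With shared peaks only and U kept, that share differed from the arms by -41.3 points. Differences that never passed changed sign for hrp36 shared shares, to 0.501 points against Uextra with peaks of at least 2 kb, and for Het against U to 0.274 points within 1 kb, 1.88 points with peaks of at least 2 kb and 0.0574 points without 2RHet. Without U, the lower hrp48 shared share passed against the arms (-11.6 points) and Uextra (-10.2 points). Het against U for hrp48 lost its call with merged peaks (-10.2 points) and with peaks of at least 2 kb (-6.43 points). The hrp48 shared share was 79.2% on Het and 94.0% on U, and the median border difference 40 and 16 bp. Coverage was 471.1 kb in both lists, and with gaps under 10 kb filled 573.7 kb for hrp36 and 638.7 kb for hrp48. In base pairs the Het share of the set differed by -2.48 points between hrp36 and hrp48. Peak number limits the precision on 2LHet and YHet most, and depth is unknown.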
